A study of Ovis aries with 15 samples.

Results

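Kidney RNA of sheep was examined here for 7 genes of steroid hormone and catecholamine synthesis, out of the 25592 genes in the deposited table. The genes were STAR, CYP11A1, CYP17A1 and CYP11B1 of steroid synthesis, and TH, DBH and CHGA of catecholamine synthesis and storage. They were chosen by symbol as genes known from the adrenal gland, after their levels in these 15 libraries had been seen, so their levels are given as a description with no test. AFB1 replicate 2 and AFB1_CUR replicate 2 were marked in that choice, and AFB1 replicate 1 was set apart because of its liver transcripts. All 7 genes were found in the table, each with a count and an FPKM value (fragments per kilobase of transcript, scaled to the size of the library) in every library.

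All groups were male sheep, 4 months old, from a cross of Dorper with Small-tailed Han, and all ate a total mixed ration for 21 days. CON sheep ate the ration alone. For AFB1 sheep each kg of dry matter carried 500 µg of aflatoxin B1, a mould toxin of feed, and for AFB1_CUR sheep it carried that amount together with 800 mg of curcumin, a turmeric pigment. Each group had 5 libraries of kidney RNA, and total counts per library ran from 50255295 to 68747047. The labels name the tissue as kidney without a region, give no batch and do not tie a library to an animal, so the spread between libraries may be partly technical.

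Steroid hormones are made from cholesterol, which STAR (steroidogenic acute regulatory protein) carries to the inner mitochondrial membrane, where CYP11A1 cuts its side chain to give pregnenolone. CYP17A1 and CYP11B1 act further down, towards cortisol, and CYP11B1 is a defining gene of the adrenal cortex. Catecholamines are made from tyrosine by TH, the rate-limiting enzyme, and later DBH, which forms noradrenaline, and they are stored in vesicles with chromogranin A, the product of CHGA, in adrenal chromaffin cells and in sympathetic nerves, which also reach the kidney.

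Of the 15 libraries, AFB1 replicate 1 carried liver transcripts. The 12 hepatocyte genes of a list summed to 50617 FPKM there, against 73.7 to 406 in the others, while the summed level of 9 genes of the loop, distal tubule and collecting duct was 17.5 FPKM against 1001 to 3012. Podocyte genes summed to 16.2 FPKM in that library and to 143 to 287 in the others, so the kidney label held for 14 libraries by these markers. AFB1 replicate 2 had the next highest ALB, at 23.9 FPKM against at most 11.8 in the remaining libraries, and the next highest FGA, FGB, FGG, AHSG, CPS1 and TAT. For APOA1, APOA2, TTR, SERPINA1 and F2 it did not exceed the remaining libraries. Values are given with and without AFB1 replicate 1 where it moves a result. No pair of libraries in a group agreed within sampling noise.

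STAR stood out in a pair of libraries from different diets. Its FPKM was 0.241, 0.780, 0.333, 0.396 and 0.250 in CON replicates 1 to 5. In the AFB1 group it was 0.126, 4.21, 0.311, 0.267 and 0.203, and in the AFB1_CUR group 0.594, 10.8, 0.473, 0.577 and 0.874. AFB1_CUR replicate 2 was the highest and AFB1 replicate 2 the next, and the other 13 libraries lay below 1 FPKM. Against the median of those 13 libraries, 0.333 FPKM, STAR was 32.6-fold higher in AFB1_CUR replicate 2 and 12.6-fold higher in AFB1 replicate 2. Against the highest of the 13 it was 12.4-fold and 4.81-fold higher.

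STAR lies on chromosome 26 from 32406838 to 32414375 on the minus strand, in the coordinates of the deposited table, which for this gene equal those of the RefSeq assembly ARS-UI_Ramb_v3.0. The span overlaps ASH2L on the other strand, a gene of a histone methyltransferase complex. ASH2L was at 4.12 to 11.3 FPKM, with 16.5% of its 15-library sum in the same pair of libraries. Because the sources used here do not say whether strand was used in counting, a part of the low STAR counts, 26 to 207 in the 13 libraries, could not be assigned with certainty.

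CYP11A1 was counted in the same pair of libraries and in no other. It had 629 counts (4.57 FPKM) in AFB1_CUR replicate 2 and 188 counts (1.43 FPKM) in AFB1 replicate 2, and it was listed at 0 in the other 13, AFB1 replicate 1 included. Against the level that 3 counts would give in the shallowest of the 13, 0.0597 CPM (counts scaled to library size), it was at least 186-fold higher in AFB1_CUR replicate 2 and at least 58.7-fold higher in AFB1 replicate 2. Intervals and floors of this kind cover counting error only. In this table a 0 can also be a missed estimate: of 14742 genes with a median count of at least 100 in the 14 kidney libraries, 41 had a 0 in at least 1 of them.

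CYP11A1 made up 21.9% of the summed STAR and CYP11A1 counts in AFB1_CUR replicate 2 (95% Clopper-Pearson interval, 20.4 to 23.5) and 18.6% in AFB1 replicate 2 (16.2 to 21.1). In the other 13 libraries it was 0 of 1213 counts, which allows a share of up to 0.247%.

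CYP11A1 lies on chromosome 18 from 31986909 to 32000560 on the plus strand, with no overlapping gene. Its downstream neighbour CCDC33, 1559 bp away, had 1.80 FPKM in AFB1 replicate 2 and 1.77 in AFB1_CUR replicate 2, against 0 to 1.40 in the rest. The upstream neighbour SEMA7A, a semaphorin of immune cells and axons 67447 bp away, was at 9.72 and 11.98 FPKM against 2.12 to 8.31.

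**Figure D1:**
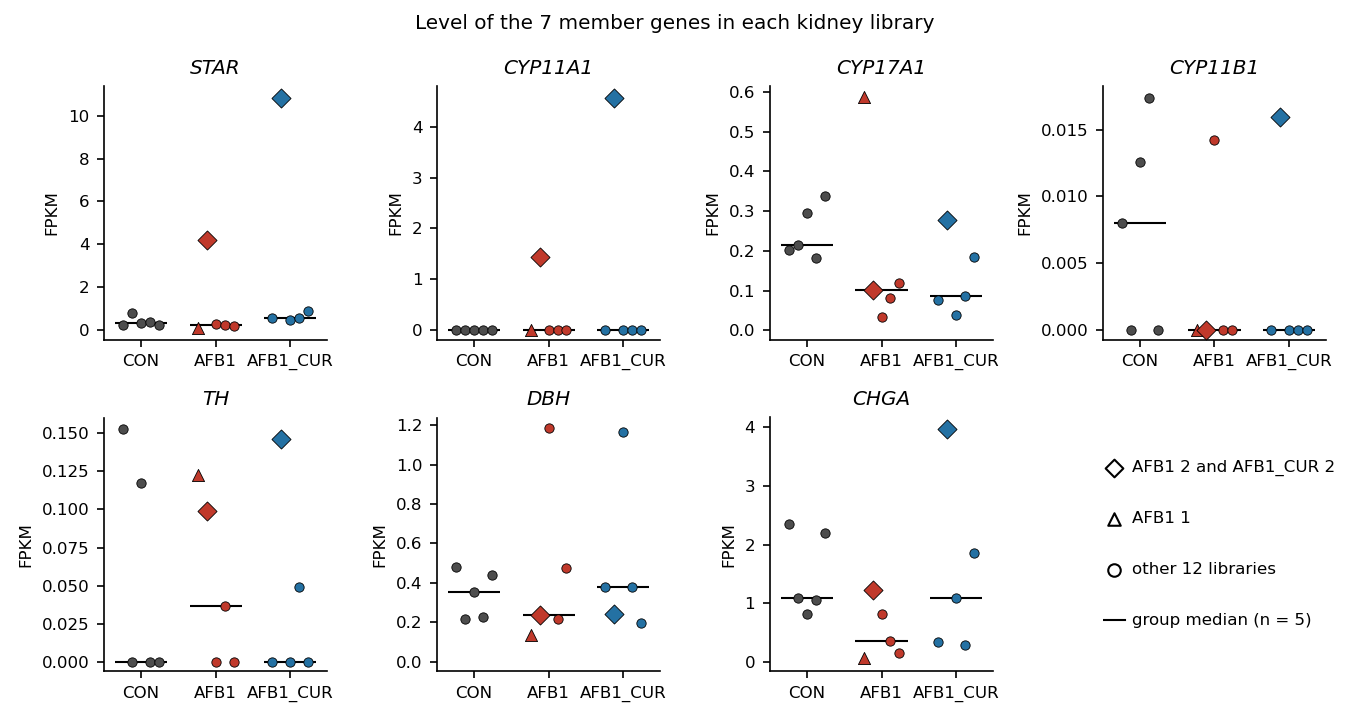
FPKM of the 7 genes (linear axes, 1 panel a gene) in the 5 libraries of each group. Diamonds mark AFB1 replicate 2 and AFB1_CUR replicate 2, the triangle AFB1 replicate 1, circles the other 12 libraries and lines the group medians; STAR (4.21 and 10.8 FPKM) and CYP11A1 (1.43 and 4.57 FPKM) were highest in both diamonds, and the other 5 genes were not.

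CYP17A1, which adds the 17-hydroxyl group needed for cortisol and androgens, did not follow STAR. Its FPKM was 0.202, 0.213, 0.296, 0.181 and 0.338 in CON, 0.587, 0.1003, 0.033, 0.081 and 0.118 in AFB1, and 0.076, 0.279, 0.039, 0.086 and 0.184 in AFB1_CUR. The highest library was AFB1 replicate 1, whereas AFB1_CUR replicate 2 came 4th and AFB1 replicate 2 came 10th of 15. Without AFB1 replicate 1 the AFB1 group averaged 0.083 ± 0.037 FPKM (SD, n = 4), against 0.246 ± 0.067 FPKM in CON (SD, n = 5). The gene was chosen on these values and its highest AFB1 library is left out there, so no difference between groups is read. These levels rest on 4 to 62 counts per library. The gene lies on chromosome 22 from 23170151 to 23176148 on the minus strand, 14793 bp from a gene that the table names CYP17 and describes with the same enzyme, so reads may be split between the 2 entries. CYP17 had 0.809 FPKM in AFB1_CUR replicate 2, 0.104 in AFB1 replicate 2 and 0.077 to 0.307 in the others.

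CYP11B1, the 11-hydroxylase that completes cortisol, was close to 0 in all libraries. It had 3 counts in CON replicate 1, 4 in each of CON replicates 3 and 4, AFB1 replicate 3 and AFB1_CUR replicate 2, and 0 in the other 10. The highest FPKM was 0.017, in CON replicate 4, and AFB1 replicate 2 had no count. In the whole table a count of 4 occurred 8032 times, against 2819 times for 3 and 2266 times for 5, so such low counts may not be plain read tallies and no order was read from them. The gene lies on chromosome 9 from 14477140 to 14485010 on the minus strand.

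TH, the first enzyme of catecholamine synthesis, was also near its counting limit. It had 84 counts over 7 of the 15 libraries, at most 20 in one, and was listed at 0 in the others. The FPKM was 0.153 in CON replicate 1, 0.146 in AFB1_CUR replicate 2, 0.123 in AFB1 replicate 1, 0.117 in CON replicate 3 and 0.099 in AFB1 replicate 2, with 0.049 in AFB1_CUR replicate 4 and 0.037 in AFB1 replicate 4. Libraries of all 3 groups thus held the higher and the zero values alike. TH lies on chromosome 21 from 45764210 to 45770799 on the plus strand, 3957 bp before IGF2.

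DBH, the vesicle enzyme that turns dopamine into noradrenaline, was highest in a different pair of libraries. The FPKM was 0.481, 0.214, 0.353, 0.225 and 0.439 in CON, 0.134, 0.239, 1.19, 0.216 and 0.476 in AFB1, and 0.379, 0.240, 1.17, 0.377 and 0.195 in AFB1_CUR. AFB1 replicate 3 and AFB1_CUR replicate 3 stood above 1 FPKM, and the libraries that were high in STAR came 10th and 9th. With 5 libraries each, the mean ± SD was 0.343 ± 0.121 for CON, 0.450 ± 0.431 for AFB1 and 0.472 ± 0.397 for AFB1_CUR, and the 3 groups overlapped. DBH lies on chromosome 3 from 2435604 to 2452672 on the minus strand and overlaps LOC121819260 on the plus strand, which is itself described as dopamine beta-hydroxylase and was also highest in AFB1 replicate 3 (2.66 FPKM) and at 1.75 FPKM in AFB1_CUR replicate 3, so the split of reads between them is not known and the DBH level is uncertain. Neuropeptide Y, encoded by NPY and stored with noradrenaline in sympathetic nerves, was highest in AFB1_CUR replicate 3 at 7.83 FPKM but was at 0.839 FPKM in AFB1 replicate 3.

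CHGA, an acidic protein of hormone storage vesicles, had the highest mean and median of the 3 catecholamine genes over the 15 libraries, but not the highest level in every library. Its FPKM was 2.34, 1.09, 0.807, 1.06 and 2.2 in CON, 0.066, 1.23, 0.821, 0.358 and 0.149 in AFB1, and 0.345, 3.97, 1.09, 0.288 and 1.86 in AFB1_CUR. AFB1_CUR replicate 2 was the highest, 4.84-fold above the median of the 13 libraries and 1.69-fold above the highest of them, while AFB1 replicate 2 came 5th, below CON replicates 1 and 5. The AFB1 mean was 0.525 ± 0.492 FPKM against 1.5 ± 0.716 in CON and 1.51 ± 1.52 in AFB1_CUR (SD, n = 5 each), and the groups overlapped. CHGA lies on chromosome 18 from 55400417 to 55413524 on the plus strand. In bulk tissue, fewer cells of a type and less RNA per cell cannot be told apart, for CHGA or for any gene here.

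By mean FPKM over the 15 libraries, a scale that accounts for transcript length, the order of the levels was STAR (1.36), CHGA (1.18), DBH (0.422), CYP11A1 (0.400), CYP17A1 (0.188), TH (0.048) and CYP11B1 (0.005). The order of the first 4 depends on single libraries. By the median over libraries CHGA (1.06) led STAR (0.396) and DBH (0.353), whose ranges overlap, and CYP11A1, TH and CYP11B1 were at 0.

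The pair of libraries high in STAR held 73.5% of its 15-library FPKM sum and 100% of that of CYP11A1. They held 29.4% for CHGA, 33.8% for TH, 23.4% for CYP11B1, 13.5% for CYP17A1 and 7.57% for DBH. An even spread would give 13.3%, and the median over the 15298 genes with at least 1 FPKM in some library was 15.0%. STAR and CYP11A1 were the only 2 of the 7 genes for which these were the 2 highest libraries, which was the case for 16.8% of those 15298 genes; a highest value in either of them, as for CHGA too, was found for 39.2%. Since the genes were chosen on these values, nothing is read from the shares.

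Group means of STAR followed the pair. With 5 libraries each, the mean ± SD was 0.400 ± 0.222 FPKM for CON, 1.02 ± 1.78 for AFB1 and 2.67 ± 4.57 for AFB1_CUR. Without the pair, AFB1 fell to 0.227 ± 0.081 (n = 4, range 0.126 to 0.311) and AFB1_CUR to 0.629 ± 0.172 (n = 4, range 0.473 to 0.874). The lowest of these AFB1 values was that of the liver-like AFB1 replicate 1. The fitted log2 difference of STAR between AFB1 and CON went from 1.29 ± 1.01 (SE) with all libraries to −0.65 ± 0.35 without the pair, and that between AFB1_CUR and CON from 2.53 ± 1.04 to 0.65 ± 0.34. Between AFB1_CUR and AFB1, it was 1.24 ± 0.998 with the pair and 1.30 ± 0.37 without. The pair was marked when STAR was chosen, so leaving it out narrows the spread by choice. No difference between groups is read from these values. For CYP17A1 the fitted difference between AFB1 and CON was 0.03 ± 0.76 with all libraries and −1.50 ± 0.59 without AFB1 replicate 1.

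Of the 7 genes, 1, CHGA, reached 1 FPKM in at least 5 libraries, the level needed to enter the tests across genes. Its fitted log2 differences in that fit were −1.54 ± 0.72 (SE) between AFB1 and CON, 1.39 ± 0.72 between AFB1_CUR and AFB1, and −0.14 ± 0.70 between AFB1_CUR and CON. In a fit with no filter on low values they were −1.55, 1.40 and −0.15 with all libraries, and −2.07 ± 0.69, 1.27 ± 0.70 and −0.80 ± 0.65 without AFB1 replicate 2 and AFB1_CUR replicate 2. The AFB1_CUR mean without its replicate 2 was 0.896 ± 0.739 FPKM (SD, n = 4). No p-value is given for a gene chosen on these values.

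The genes around STAR and CYP11A1 in the pathway were next read from a list of other adrenal cortex genes, of which 15 of 21 were in the table and 11 reached 1 FPKM in some library. Genes that supply cholesterol or electrons were present in all 15 libraries, among them the electron carriers FDX1 (23.3 to 66.1 FPKM) and FDXR (4.20 to 8.18 FPKM). Of the 11 genes, 2 (DLK1 and AKR1B1) had their highest level in the pair, where 39.2% of all genes did. SCARB1, a lipoprotein receptor, was at 2.86 FPKM in AFB1_CUR replicate 2 and 2.94 in AFB1 replicate 2, above the 1.16 to 2.17 of the other 12 kidney libraries, with 14.3 in AFB1 replicate 1. GATA6, a transcription factor, was at 3.52 and 2.48 FPKM against 1.21 to 3.10 in those 12, with 9.01 in AFB1 replicate 1. DLK1, a membrane protein of steroid-forming and other progenitor cells, was at 108 FPKM in AFB1_CUR replicate 2 and 41.9 in AFB1 replicate 2, against 13.9 to 63.5 in the other 13. AKR1B1, an aldose reductase, was at 30.1 and 15.6 FPKM against 1.27 to 26.4.

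Genes that act after CYP11A1 or regulate it differed in direction in the pair. HSD3B1, which turns pregnenolone into progesterone, was at 0.754 FPKM in AFB1_CUR replicate 2 and 1.23 in AFB1 replicate 2, against 0.881 to 2.5 in the other 12 kidney libraries, with a median of 2.102, and 0.040 in AFB1 replicate 1. AFB1_CUR replicate 2 was thus the lowest of the kidney libraries. MC2R, the receptor for the pituitary hormone ACTH, was at 0.182 and 0.063 FPKM against 0 to 0.239, with a median of 0.0296 in the other 12 kidney libraries. NR5A1, a transcription factor of steroid-forming cells, was at 0 in AFB1_CUR replicate 2 and at 0.137 FPKM in AFB1 replicate 2, on 14 counts, the highest of the 15 libraries. Neither CYP21 nor CYP21A2 is a symbol of the table, but 2 genes are described as steroid 21-hydroxylase and were looked up after values had been seen. LOC105612707 was at 0.880 FPKM in AFB1_CUR replicate 2, 0.398 in AFB1 replicate 2 and 13.02 in the liver-like AFB1 replicate 1, against 0.0414 to 0.538 in the other 12 kidney libraries. LOC114108679 was at 0.212 in AFB1_CUR replicate 2, 0.129 in AFB1 replicate 2 and 0.511 in AFB1 replicate 1, and both libraries of the pair lay above the other 12 kidney libraries, at 0.0284 to 0.103.

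**Figure D2:**
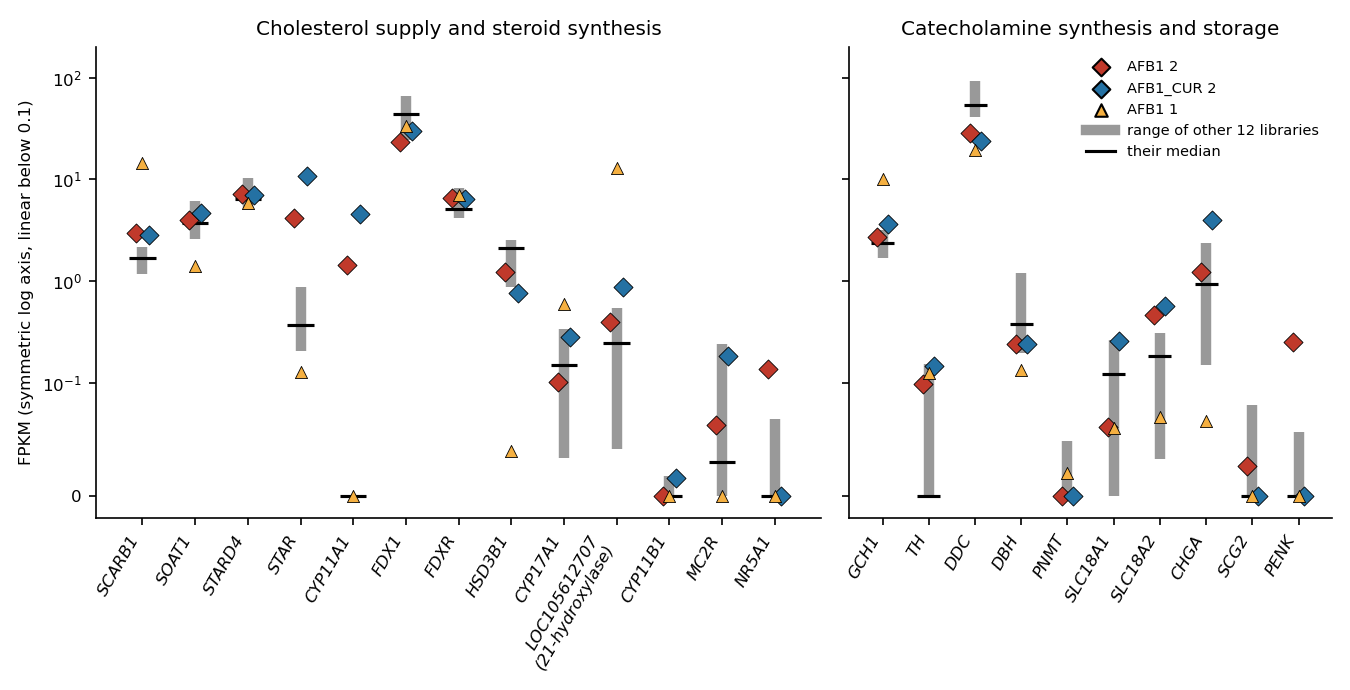
FPKM (symmetric log axis, linear below 0.1) of genes along cholesterol supply and steroid synthesis on the left and catecholamine synthesis and storage on the right. Diamonds are AFB1 replicate 2 and AFB1_CUR replicate 2, triangles AFB1 replicate 1, grey bars the range of the other 12 libraries and black lines their median; STAR and CYP11A1 lie above the bar in both diamonds, whereas HSD3B1 (1.23 and 0.754 FPKM), CYP11B1 and PNMT do not.

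The list of other chromaffin genes had 22 of 26 genes in the table, 11 of them with at least 1 FPKM in some library, and 3 of these 11 were highest in the pair, as 39.2% of all genes were. PNMT, which makes adrenaline and so defines adrenaline cells, had no count in either library of the pair and reached 0.048 FPKM elsewhere. DDC, which makes dopamine and is also a proximal tubule enzyme, was lower in the pair, at 28.5 FPKM in AFB1 replicate 2 and 23.7 in AFB1_CUR replicate 2, than in the other 12 kidney libraries, at 41.3 to 93.3. Most genes of the list that were highest in the pair were low. SLC18A2, the vesicle monoamine transporter, was at 0.569 FPKM in AFB1_CUR replicate 2 and 0.460 in AFB1 replicate 2 against 0.032 to 0.309. SCG3, a secretory granule protein, was at 0.177 and 0.152 FPKM against 0 to 0.053, and INSM1, an endocrine transcription factor, at 1.22 and 0.024 FPKM against 0 to 0.023. SNAP25, of vesicle fusion, was at 2.21 and 1.03 FPKM against 0 to 1.99, and RAB3C, of vesicle transport, at 1.26 and 0.936 against 0 to 1.07. VGF (0.176 and 0.329 FPKM), PCSK1 (0.080 and 0.315), PENK (0 and 0.251) and PHOX2A (0.246 and 0.065) stayed below 1 FPKM in all libraries. SLC18A1, also a vesicle monoamine transporter, was within the range of the other libraries, at 0.255 and 0.061 FPKM against 0 to 0.262. So were the secretory granule genes SCG2, at 0 and 0.026 FPKM against 0 to 0.080, and SCG5, at 1.63 and 3.18 against 0 to 4.34.

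The markers of adrenal tissue were mixed in the pair. STAR, CYP11A1, SLC18A2 and SCG3 were highest there, and CHGA, DLK1 and INSM1 were highest in AFB1_CUR replicate 2. The pair had CYP11B1 at 0 and 4 counts and PNMT at 0 in both. MC2R, SLC18A1, SCG2 and SCG5 were within the range of the other libraries, and TH, DBH and CYP17A1 at levels that other libraries reached or exceeded. CYP17, described as the same enzyme as CYP17A1, was highest in AFB1_CUR replicate 2 (0.809 FPKM against at most 0.307 outside the pair), and LOC105612707 was there the highest of the kidney libraries. Markers of other steroid-forming tissue and of nerve were read in the same way. The 4 Leydig cell and gonad genes in the table summed to 0.988 and 1.48 FPKM in the pair, against 0.606 to 1.14 in the other 12 kidney libraries. Of 13 neuron and Schwann cell genes, 3 reached 1 FPKM and 2 of these were highest in the pair, with STMN2, a neuronal tubulin regulator, at 7.47 FPKM in AFB1_CUR replicate 2 and 1.40 in AFB1 replicate 2 against 0 to 1.32.

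Lymphoid genes were also highest in this pair of libraries. All 10 genes of a lymphoid list were highest in the pair, and for 8 of the 10 the pair were the 2 highest libraries, against 16.8% of all genes. The list summed to 457 FPKM in AFB1_CUR replicate 2, 164 in AFB1 replicate 2, 29.1 to 71.3 in the other 12 kidney libraries and 22.5 in AFB1 replicate 1. No gene of the list was at 0 in the pair, and the median share of its genes held by the pair was 57.3%. The list was chosen with earlier results of these data known, so these counts are a description and no test.

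The list holds genes of B cells, follicles and T-cell zones. MS4A1, the B-cell antigen CD20, was at 46.3 FPKM in AFB1_CUR replicate 2 and 7.57 in AFB1 replicate 2, against 0.026 to 0.983 in the other 13. CR2, a complement receptor of B cells and follicular dendritic cells, was at 44.8 and 3.90 FPKM, with 3.10 in AFB1 replicate 1 and at most 0.249 in the other 12. CXCL13, the chemokine that draws B cells into follicles, was at 28.8 and 22.2 FPKM against 0 to 2.24. CCL19, a chemokine of the T-cell zone, was at 123 and 33.0 FPKM against 1.11 to 22.1, and CD3E, a T-cell receptor subunit, at 27.6 and 24.3 against 3.72 to 12.3. Adipocyte genes summed to 63.6 FPKM in AFB1 replicate 2, of which FABP4 made up 62.8, against 6.90 in AFB1_CUR replicate 2 and 0.288 to 5.20 in the other 12 kidney libraries. Whether cells with these transcripts account for the STAR and CYP11A1 levels was not tested.

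**Figure D3:**
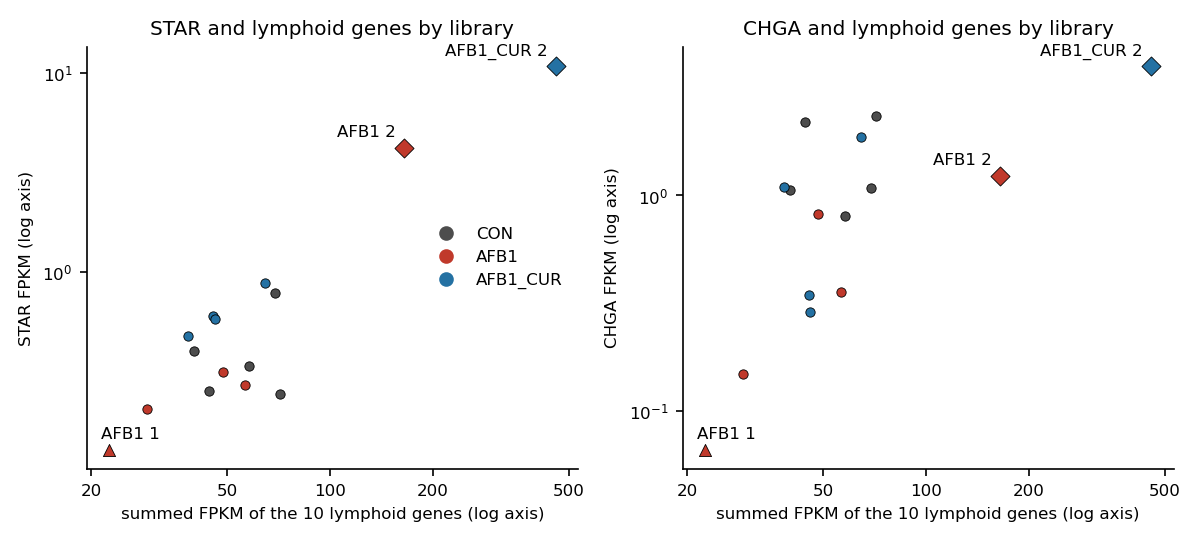
FPKM of STAR (left) and CHGA (right) against the summed FPKM of the 10 lymphoid genes in each library, all axes logarithmic, 1 point a library, coloured by group. AFB1 replicate 2 (164 FPKM of lymphoid genes) and AFB1_CUR replicate 2 (457 FPKM) stand apart on both axes for STAR, while for CHGA AFB1 replicate 2 lies among the others.

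Kidney genes moved less in the pair. Proximal tubule genes summed to 1567 FPKM in AFB1 replicate 2 and 1589 in AFB1_CUR replicate 2, below the 2216 to 4317 of the other 12 kidney libraries. Genes of the loop, distal tubule and collecting duct summed to 2929 FPKM in AFB1 replicate 2 and 1001 in AFB1_CUR replicate 2, against 1125 to 3012, and podocyte genes to 171 and 215, within 143 to 287.

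**Figure D4:**
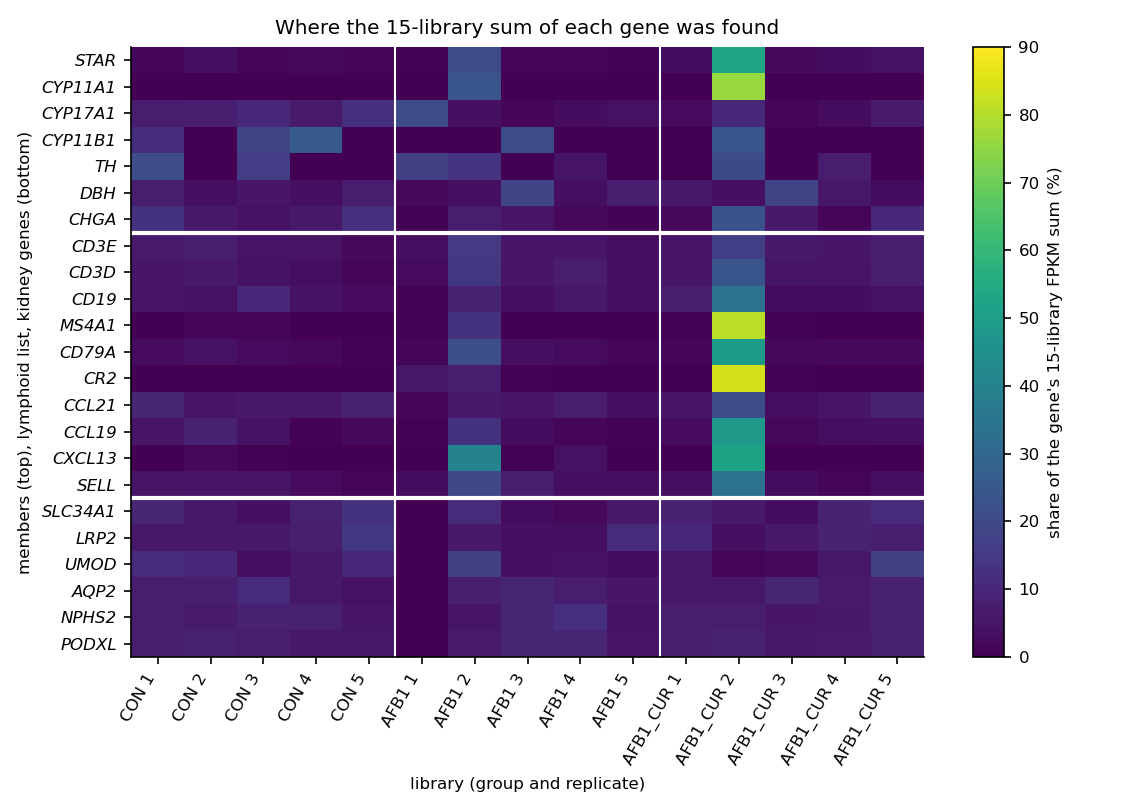
Share of each gene's 15-library FPKM sum found in each library, in percent by the colour scale, for the 7 genes, the 10 lymphoid genes and 6 kidney genes, with libraries in columns by group. STAR and CYP11A1 share the bright column of AFB1_CUR replicate 2 and the lesser one of AFB1 replicate 2 with the lymphoid genes (MS4A1, CR2, CXCL13), and DBH and CYP17A1 do not.

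The genes whose spread over the 15 libraries was most like that of the steroid and catecholamine genes were ranked by overlap, the sum over libraries of the smaller of the 2 shares, among 15294 other genes with at least 1 FPKM in some library. For the mean profile of STAR, CYP11A1, CYP17A1 and CYP11B1 the 10 nearest were SORCS1, GRIA3, POU2F2, GEM, TP73, LOC105609073, MSC, UHRF1, CD69 and PKMYT1, with overlaps of 85.8% to 82.1% where the median gene had 57.3%. For TH, DBH and CHGA they were TNNI2, LOC105605744, CREB3L1, COL5A1, BCL6, CCDC125, TRIM32, MAP3K8, SAMD1 and ACAP1, at 87.0% to 85.2% against a median of 75.6%. None of the 20 belonged to the lists of adrenal genes. The libraries are the same for all genes compared, and both rankings changed when 1 gene was taken out of the mean: without CYP11A1, 0 of the first 10 were still among the nearest 10, and without DBH, 0 of the second 10.

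Receptors, targets and clearance enzymes of the 2 hormone classes were tested between the groups, since kidney cells respond to adrenal hormones. The test was edgeR's quasi-likelihood test on 13193 genes, and a gene counted as called where it differed by more than 1.5-fold with p below 0.05 before adjustment. Between AFB1 and CON 506 genes were called higher and 133 lower, 4.84% of those tested, between AFB1_CUR and AFB1 78 and 447 (3.98%), and between AFB1_CUR and CON 99 and 32 (0.993%). With Benjamini-Hochberg adjustment edgeR called 0 genes in each, with 1071, 765 and 360 at an unadjusted p under 0.05, and DESeq2 called 7, 2 and 1. Without AFB1 replicate 1 the called shares were 1.75%, 0.94% and 1.64%, with 86 genes higher and 145 lower between AFB1 and CON and 54 and 70 between AFB1_CUR and AFB1. The comparisons share libraries, so a gene high in AFB1 appears in both of the first 2.

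Of 15 corticosteroid receptor, metabolism and target genes, all tested, 1 was called between AFB1 and CON and between AFB1_CUR and AFB1, and 0 between AFB1_CUR and CON. That gene was HSD11B1, a liver-rich enzyme that regenerates cortisol. It was 3.13 ± 1.06 (log2, SE) higher in AFB1 than in CON and 3.12 ± 1.06 lower in AFB1_CUR than in AFB1 (edgeR, adjusted p = 0.596 and 0.785). AFB1 replicate 1 had 784 FPKM and the other 14 libraries 14.9 to 57.6, and without it the difference from CON was 0.17. The highest mean levels in the list were those of the sodium pump subunit ATP1B1 (461 FPKM) and of HSD11B2 (246), which inactivates cortisol in the collecting duct, and neither was called. The median log2 difference of the list between AFB1 and CON was −0.02, against 0.03 over all genes tested, and without AFB1 replicate 1 it was 0.17 against 0.02.

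Of 18 genes of catecholamine receptors and clearance, 11 were tested. ADRB1 was called higher in AFB1 than in CON and lower in AFB1_CUR than in AFB1, and 0 genes were called between AFB1_CUR and CON. The highest means were those of the clearance genes MAOB (116 FPKM) and SLC22A2 (81.1) and of the receptor ADRA2A (15.3), which were not called. The median difference of the list between AFB1 and CON was −0.26, and −0.10 without AFB1 replicate 1.

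ADRB1, the beta-adrenergic receptor through which sympathetic nerves release renin, was called with and without AFB1 replicate 1. Its FPKM was 1.004, 2.14, 1.30, 1.45 and 1.25 in CON, 1.07, 2.06, 3.76, 3.78 and 1.14 in AFB1, and 1.71, 1.11, 1.78, 0.911 and 1.58 in AFB1_CUR. AFB1 replicates 3 and 4 were high, and the other AFB1 libraries lay within the CON range. The log2 difference was 0.80 ± 0.33 (SE) between AFB1 and CON and −0.86 ± 0.33 between AFB1_CUR and AFB1 (edgeR, unadjusted p = 0.0271 and 0.0194; adjusted p = 0.596 and 0.785). Without AFB1 replicate 1 it was 0.90 ± 0.33 and −0.97 ± 0.33, and both were called. The call against CON was lost without AFB1 replicate 3 (edgeR, unadjusted p = 0.0825), AFB1 replicate 4 (unadjusted p = 0.0918), or CON replicate 1, 3 or 5 (unadjusted p = 0.0642, 0.0519 and 0.0535), with log2 differences of 0.63 and 0.58 without the AFB1 libraries and of 0.70, 0.77 and 0.76 without the CON ones. It was also lost with limma on log2(FPKM + 1) or log2(FPKM + 0.1) (limma, unadjusted p = 0.12 and 0.15). The call between AFB1_CUR and AFB1 was lost without AFB1 replicate 3 (edgeR, unadjusted p = 0.0608) or AFB1 replicate 4 (unadjusted p = 0.0645), at −0.68 and −0.65, and with limma at the same offsets (limma, unadjusted p = 0.116 and 0.142). DRD4, a dopamine receptor, was not called with all libraries, and without AFB1 replicate 1 it was called lower in AFB1 than in CON, at −0.69 ± 0.24 (edgeR, unadjusted p = 0.0137).

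**Figure D5:**
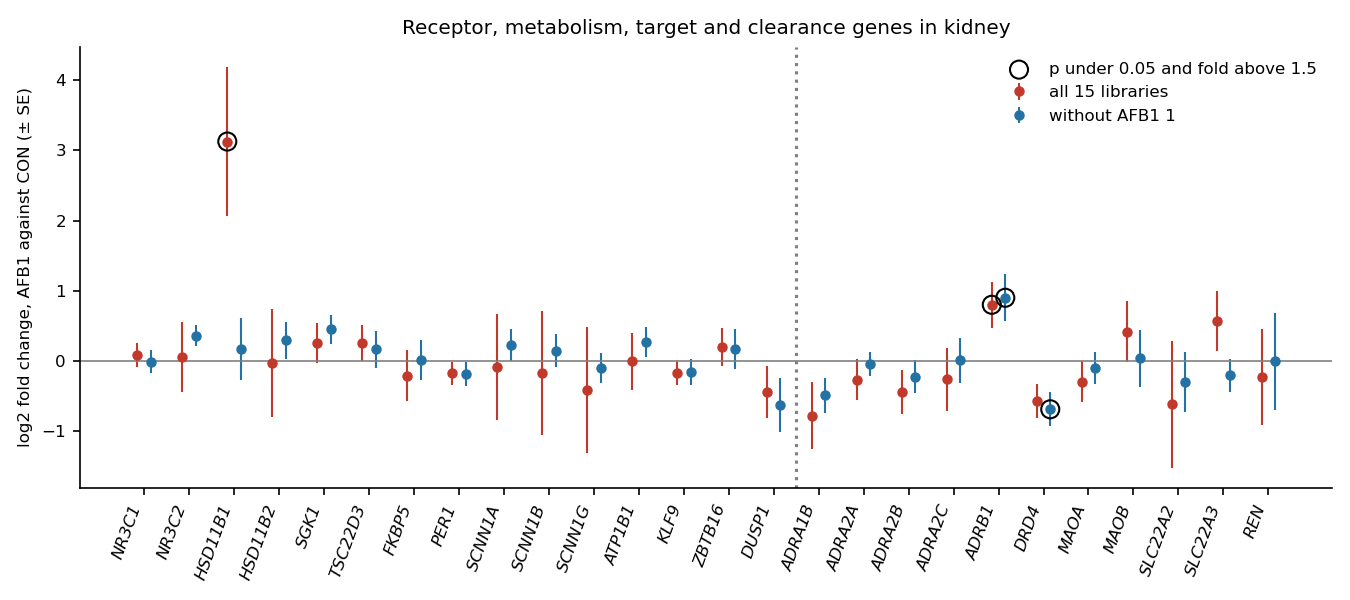
Fitted log2 fold change between AFB1 and CON (points, with SE bars) of the 26 tested corticosteroid genes (left of the dotted line) and catecholamine genes (right), with all 15 libraries in red and without AFB1 replicate 1 in blue, and with rings around called genes. HSD11B1 (3.13) loses its ring without that library, ADRB1 keeps its ring (0.80 and 0.90), and DRD4 gains one (−0.69).

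The other adrenal genes that passed the filter were tested in the same way. Of 11 other adrenal cortex genes, 2 were called higher in AFB1 than in CON, namely SCARB1 (1.88 ± 0.69, log2, SE) and GATA6 (1.26 ± 0.55). In AFB1_CUR, SCARB1 (−1.72) was called lower than in AFB1. Of 7 other chromaffin genes 1 was called, GCH1, which starts the synthesis of the cofactor of TH (1.29 ± 0.51 higher in AFB1 than in CON). All 3 were highest in AFB1 replicate 1, at 14.3 FPKM for SCARB1, 9.01 for GATA6 and 10.1 for GCH1. Without that library none of the 3 was called, and the differences from CON were 0.15, 0.17 and 0.17. The medians were 0.12 for the cortex list and −0.28 for the chromaffin list, against 0.03 over all genes, and without AFB1 replicate 1 they were 0.15 and 0.02, against 0.02. No gene of either list was called between AFB1_CUR and CON.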

How the data were processed

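According to the study's methods and the submitters' processing notes, the authors removed adapter, ambiguous and low-quality reads (cutadapt 1.9), aligned paired reads with HISAT2 2.2.1 and named StringTie 2.1.6, DESeq2 and edgeR. Counts and FPKM were deposited for each gene and library. The counting tool, its use of strand and the build were not given in the sources used here. Gene starts and ends equalled RefSeq ARS-UI_Ramb_v3.0 for 99.6% of 24947 matched genes.

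Libraries were grouped by their titles. The 7 genes and all lists were chosen with earlier results of these data known. Genes with at least 1 FPKM in at least 5 libraries were tested on the counts with edgeR 4.0.16 (TMM, glmQLFit, 1 model of all 15 libraries) in R 4.3.3. The calling rule follows the study, and edgeR replaced its DESeq2, which was kept as an alternative (1.42.0), with limma 3.58.1 on log2(FPKM + 1) and log2(FPKM + 0.1). Some listed genes are not reported here and were left out of the lists' counts. The script was tested on simulated data. The genes named were the 7; of the adrenal lists the 8 with the highest FPKM among those highest in AFB1 replicate 2 or AFB1_CUR replicate 2, plus PNMT, MC2R, NR5A1, CYP21 and HSD3B genes; of the receptor lists those called and the 3 with the highest mean; and the 10 of nearest profile. Genes from the marker lists, NPY, FDX1, FDXR, DDC, SCG2, SCG3, SCG5, SLC18A1, DRD4, neighbours and genes found by description were named after their values were seen. Precision follows from the 50255295 to 68747047 counts a library.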

Additional observations from a re-analysis of the deposited data

Results flagged for a closer look

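In each group of 5 libraries, a library was noted when its gap to the nearest of the others exceeded 0.71 of the group's range (Dixon's 95% limit). Of 123 groups examined, 30 libraries met this; chance flags about 1 in 20 groups, and for genes near 0 a single nonzero library is enough.

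The 7 genes were chosen on these values, with AFB1 replicate 2 and AFB1_CUR replicate 2 marked, so their entries are a description and are not read against that rate. They were STAR in CON replicate 2 (0.780 FPKM), AFB1 replicate 2 (4.21) and AFB1_CUR replicate 2 (10.8), CYP11A1 in AFB1 replicate 2 (1.43) and AFB1_CUR replicate 2 (4.57), CYP17A1 in AFB1 replicate 1 (0.587), CYP11B1 in AFB1 replicate 3 (0.0142) and AFB1_CUR replicate 2 (0.0159), and DBH in AFB1_CUR replicate 3 (1.17).

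The summed FPKM of lists was set apart for lymphoid genes in AFB1 replicate 2 (164) and AFB1_CUR replicate 2 (457), adipocyte genes in AFB1 replicate 2 (63.6), hepatocyte genes in AFB1 replicate 1 (50617) and genes of the loop, distal tubule and collecting duct in AFB1_CUR replicate 5 (3012).

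Of other adrenal genes, NR5A1 was set apart in AFB1 replicate 2 (0.137 FPKM) and AFB1_CUR replicate 5 (0.0681), INSM1 in AFB1 replicate 2 (0.0240) and AFB1_CUR replicate 2 (1.22), PENK in CON replicate 4 (0.0561) and AFB1 replicate 2 (0.251), PHOX2A in CON replicate 2 (0.207), PNMT in CON replicate 5 (0.0479), AFB1 replicate 1 (0.0198) and AFB1_CUR replicate 5 (0.0271), and HSD3B1 by a low value in CON replicate 1 (1.06).

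AFB1 replicate 1 was set apart by low ATP1B1 (45.1 FPKM) and by high SCARB1 (14.3), GATA6 (9.01), GCH1 (10.1) and HSD11B1 (784).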

How the results depend on the processing

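The calls moved with the processing, and the cause was not tested. Between AFB1 and CON the 639 called genes became 1778 with no filter on low values, 258 and 347 with limma at pseudocounts of 1 and 0.1, and 268 without AFB1 replicates 1 and 2 and AFB1_CUR replicate 2; leaving out 1 library gave 231 to 959. Between AFB1_CUR and AFB1 the 525 became 1597, 184, 283 and 223 in the same settings and 302 with only the libraries of both groups, and 124 to 924 with 1 library left out. Between AFB1_CUR and CON the 131 became 699 unfiltered, 52 with limma at 1, 225 with both groups alone and 67 without the pair high in STAR, and 65 to 216. With limma at 1 the calls were 43 higher and 215 lower between AFB1 and CON and 154 higher and 30 lower between AFB1_CUR and AFB1, where the median of all genes moved to −0.10 and 0.17.

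The 3 adrenal list genes called between AFB1 and CON, all higher, became 6 unfiltered and 5 without the pair, both holding the 3, and 1 with DESeq2, limma at 1 or without the 3 libraries (0 to 5 with 1 left out). Each of those single calls was lower and not among the 3, and without the 3 libraries it was CHGA, 1 of the 7 genes. These counts include any of the 7 genes that passed, which were chosen on their values, and are descriptions. The 1 between AFB1_CUR and AFB1 became 4 unfiltered, 2 with DESeq2 or without the pair, and 0 with limma, both groups alone or without the 3 libraries (0 to 4), and the 0 between AFB1_CUR and CON became 3 unfiltered (0 with any 1 left out). The 2 receptor and clearance genes, both higher between AFB1 and CON, became 4 without the pair, 1 of the 2 with DESeq2, and with either limma 1 other gene, which was lower (1 to 4 with 1 library left out). Between AFB1_CUR and AFB1 the 2, both lower, became 1 of the 2 with DESeq2 and 1 other, higher gene with limma at 1 (1 to 3 with 1 left out), and the 0 between AFB1_CUR and CON became 0 to 1. SCARB1 changed sign: without the 3 libraries it was −0.10 between AFB1 and CON and 0.15 between AFB1_CUR and AFB1, and with 1 library left out the latter ran from −1.99 to 0.0099, the last without AFB1 replicate 1. The share of STAR in the pair was 70.4% in TMM CPM and 74.9% in TPM.

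Replicate numbers share no stated source: 8 of 15 same-numbered pairs correlated above 0.1 (−0.308 to 0.482), and 4 of 15 libraries correlated best with their own number. With the replicate number as a block the calls were 327, 175 and 187 genes, 1, 0 and 0 adrenal list genes and 1, 0 and 0 receptor genes, the single calls being lower and not among those without the block. The ADRB1 calls were lost with it (edgeR, unadjusted p = 0.0672 and 0.056), at 0.73 and −0.77 in place of 0.80 and −0.86.

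Limits: 3 of the 7 genes had under 65 counts in every library, FPKM values of 0 may be missed estimates, and with 5 libraries a group 1 library can set a mean.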

Other observations

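The mean profile of STAR and CYP11A1 alone was a combination chosen after seeing the data. Both genes were chosen for being high in AFB1 replicate 2 and AFB1_CUR replicate 2, so genes high in these libraries rank near it. The 10 nearest of 15294 genes overlapped by 92.8% to 89.1%, where the median gene had 28.2%, and they were LOC114109091 (described as an immunoglobulin heavy variable gene), AURKB, CLEC17A, LOC114118884, CXCR5, CD79B, POU2AF1, BCAT1, LOC121816875 and SPIB. CXCR5 is the receptor for CXCL13, CD79B is a subunit of the B-cell antigen receptor, POU2AF1 and SPIB are transcription factors of B cells, and AURKB is a mitotic kinase. Of the 10, 9 were still nearest on TMM CPM, 8 with a minimum of 5 FPKM and 10 without AFB1 replicate 1, but 5 without STAR in the mean and 0 without CYP11A1. The overlap is over the same 15 libraries and is largely set by 2 of them.

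A set of 30 genes had counts in both AFB1 replicate 2 and AFB1_CUR replicate 2 and in no other library. Only 2 of these had at least 100 counts in both, CYP11A1 and LOC132658058, an uncharacterized gene with 8.16 and 17.1 FPKM that was named after its values were seen. LOC132658058 has the same description as LOC114118884 and LOC121816875. These were at 0.266 to 8.45 and 0.412 to 17.0 FPKM in the other 12 kidney libraries, so reads may be split between the entries.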
